A study of Mus musculus with 12 samples.

Results

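Genomes are folded into loops by a small set of proteins, and 10 of their genes are described here: Ctcf, the cohesin genes Rad21, Smc1a, Smc3, Stag1, Stag2, Nipbl and Pds5b, and the DNA-binding organisers Yy1 and Satb1. They were chosen by name, as every probe set whose platform annotation gives only that gene's symbol. This gave 35 of 45037 probe sets and 10 of 18193 named genes, and each of the 10 had at least 2 probe sets. The question was whether the transcripts of these factors change in level when pre-pro-B cells receive EBF1 or PAX5, 2 transcription factors of B cell development.

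The samples were 12 one-colour Affymetrix arrays of total RNA from Ebf1-/- progenitors of strain C57BL/6, which the labels call pre-pro-B cells. All groups lacked Ebf1, the controls included, and all were grown on OP9 stromal cells with stem cell factor, Flt3 ligand and interleukin-7. They were transduced with the control retrovirus MigR1 (GFP alone), Mig-EBF1 or Mig-PAX5, and GFP-positive cells were sorted after 2 days. The labels give a first set with 3 control and 3 EBF1 arrays and a second set with 3 control and 3 PAX5 arrays. They do not give the age of the mice or say that replicates came from different cultures or mice, so the p-values measure only how these arrays vary, and that variation may be technical. The factors came from a retrovirus and not from the endogenous genes.

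CTCF binds DNA through zinc fingers and stops cohesin, a ring-shaped complex that extrudes chromatin into loops. The ring is made of SMC1A, SMC3 and RAD21, to which STAG1 or STAG2 binds. NIPBL loads cohesin and drives its movement, and PDS5B helps to regulate its release and acetylation. YY1 is a zinc finger protein found at enhancers and promoters that can bring them together, and SATB1 is an organiser of chromatin best known from T cells and lymphoid progenitors. In developing B cells such loops contract the immunoglobulin heavy chain locus before its segments are joined.

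Some facts of the arrays bear on each value below. Median intensity ran from 55.1 to 60.6 in the first set and from 65.3 to 68.9 in the second. Control arrays that bear the same number in both sets differed by a robust SD of only 0.0392 to 0.0942 in log2, against 0.287 to 0.374 for unequal numbers, so each such pair was counted as 1 control sample. PAX5 arrays 2 and 3 differed by 0.0774, against 0.211 to 0.359 for the other pairs within a group, and were also counted as 1 sample. This left 3 control, 3 EBF1 and 2 PAX5 samples, and the EBF1 and PAX5 comparisons share their controls. The labelled cell type was borne out in part. On the first-set control arrays Ptprc ran from 5693 to 6434, Ikzf1 from 5225 to 5449 and Flt3 from 1823 to 2927. Cd34 ran from 2146 to 3103 and Il7r from 737 to 3111. Lower were Spi1 (527 to 712), Tcf3 (521 to 908) and Kit (99 to 253), while Lair1, at 51 to 52, was dim. These 9 progenitor markers summed to 17380 to 22147 on first-set controls and 14658 to 17067 with EBF1. In the second set they summed to 17205 to 21911 on controls and 18791 to 20298 with PAX5. The summed intensity of 6 B lineage markers was 262 to 338 on first-set controls and 10812 to 26610 with EBF1, and 599 to 674 on second-set controls and 3989 to 5493 with PAX5. The PAX5 sum was mostly Blnk, at 4877, 3639 and 3351, and without it the other 5 summed to 558 to 570 on second-set controls and 616 to 658 with PAX5. By limma 5 of the 6 rose with EBF1 and 1, Blnk, with PAX5. The 6 measured T cell markers summed to 210 to 326 over all arrays. The 7 myeloid markers summed to 965 to 2259 on first-set controls and 463 to 875 with EBF1. On second-set controls and with PAX5 they summed to 1524 to 2752 and 1076 to 1721. For 5 natural killer and innate lymphoid markers the sums, in the same order, were 2374 to 3591, 4893 to 9177, 2558 to 3723 and 2947 to 3992. Of these 5, Gzma read 8223, 6138 and 2877 with EBF1 and was the only 1 with a change above 0 (6.43 in log2), past limma's test. The other 4 lay lower with EBF1, with log2 changes of -1.23 (Nkg7), -1.7 (Klrd1), -1.3 (Zbtb16) and -1.04 (Id2). None of these 4 passed, and all 4 stood at unadjusted p under 0.05, beside 11.3% of all genes. Markers of the OP9 stroma (12 genes) summed to 1856 to 2830 on first-set controls and 3300, 2013 and 13332 on EBF1 arrays 1, 2 and 3, with Cxcl12 at 3366 and Dcn at 8 on the last of these. The highest of the 12 on each first-set control were Thy1 (627, 1284 and 1119) and Pdgfrb (626, 413 and 285). Bgn, for example, read 550, 8 and 73 there and 899, 142 and 2727 with EBF1. With EBF1 11 of the 12 had a fitted change above 0 and 1, Pdgfrb, below it. Of the 12 stromal markers 0 passed with either factor by limma, with 0 at unadjusted p under 0.05 for EBF1 and 2 for PAX5. These 2 were Pdgfrb (log2 change -1.39) and Thy1 (-1.45), both lower with PAX5. Of the 12, 8 had a change above 0 with PAX5 and 4 below it, with a median of 0.17. On the second-set controls and with PAX5 the stromal sums were 2066 to 3240 and 1039 to 2290. In this mixture of sorted cells, fewer cells of a type and less RNA per cell cannot be told apart.

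No transcript of the 10 genes passed the test with either factor. Of the 35 probe sets 0 passed limma's test with EBF1 and 0 with PAX5 (Benjamini-Hochberg adjusted p under 0.05 over all 45037 probe sets), and 0 passed for the difference between both changes. Over all probe sets 44 (0.0977%) passed with EBF1, 232 (0.515%) with PAX5 and 473 (1.05%) for the difference. At unadjusted p under 0.05 stood 3 of the 35 with EBF1, beside 9.97% of all probe sets, 1 of the 35 with PAX5, beside 8.51%, and 5 of the 35 for the difference, beside 14.7%. The 3 with EBF1 were 2 of Satb1 and 1 of Pds5b, the 1 with PAX5 was of Satb1, and the 5 for the difference were 4 of Satb1 and 1 of Smc3. The counts over all probe sets moved with single arrays, while the count of members stayed at 0 in each case named here. With EBF1, 18, 19 and 19 probe sets passed without control array 1, 2 or 3, 23 without EBF1 array 2, 597 without EBF1 array 3 and 22 without PAX5 array 1. With each EBF1 array paired to the same-numbered control in a replicate block, 7 passed. With PAX5, 142, 119 and 99 passed without control array 1, 2 or 3 and 50 without PAX5 array 1. For the difference, 305 passed without control array 3, 234, 216 and 874 without EBF1 array 1, 2 or 3, and 78 without PAX5 array 1.

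The arrays also limit how large a change could have gone unseen. Changes are given in log2 of intensity plus 16, each with its own 95% confidence interval, not adjusted for the number of genes. Each gene is represented first by its brightest probe set. With EBF1 all 10 intervals lay within 1.5-fold of the controls in either direction, and the farthest bound was 1.46-fold (9 of 10 and 1.53-fold with the replicate block). With PAX5, where only 2 samples were counted, 8 of 10 lay within 1.5-fold and 10 of 10 within 2-fold, and the farthest bound was 1.65-fold, for Stag1. Over all 35 probe sets, 26 intervals lay within 1.5-fold with EBF1 (61.7% of all probe sets did so) and 20 with PAX5 (51.4% of all). Within 2-fold lay 34 with EBF1 (92.7% of all) and 33 with PAX5 (90.4% of all). The median change of the 35 was -0.05 with EBF1 and 0.06 with PAX5, beside 0.02 and -0.01 over all probe sets. The median size of a change, with its sign left out, was 0.12 and 0.13 for the 35 and 0.14 and 0.15 for all probe sets.

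**Figure D1:**
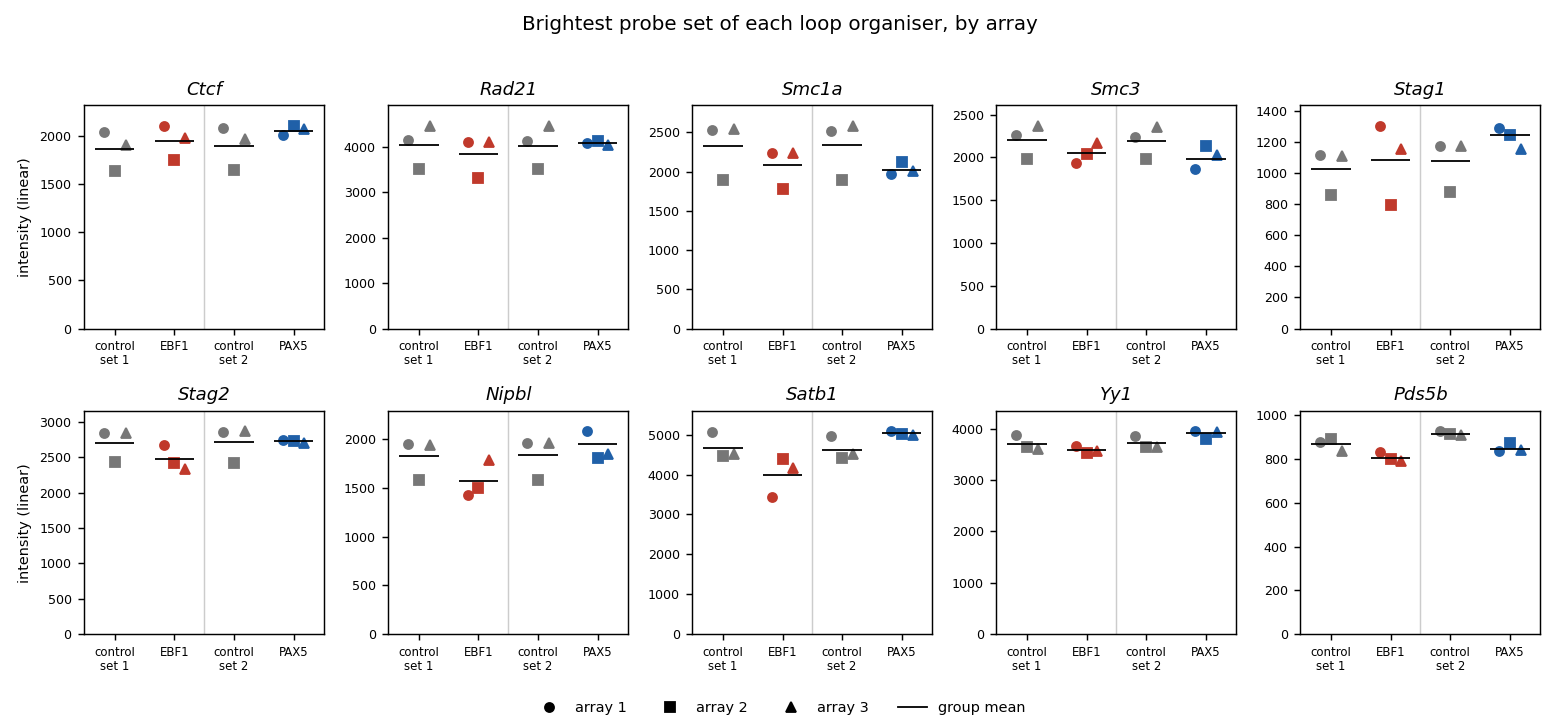
Intensity on a linear scale (vertical axis) of the brightest probe set of each of the 10 genes, for the 4 groups (horizontal axis). Each point is 1 array, its shape gives the array number, and the line is the group mean (for PAX5, the mean of array 1 and the average of arrays 2 and 3). Array 2 lies low among the controls for most genes, and the arrays of the groups overlap for most genes. All EBF1 arrays of Satb1 and Pds5b lie below the controls of the first set.

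Ctcf, the boundary factor, kept close to its control level. Its brightest probe set (1418330_at) read 2041, 1633 and 1903 on control arrays 1, 2 and 3 of the first set and 2100, 1749 and 1973 with EBF1. The log2 change was 0.06 (SE 0.13, 95% interval -0.23 to 0.36, limma adjusted p = 0.93). In the second set it read 2077, 1647 and 1961 on controls and 2003, 2101 and 2067 with PAX5, a change of 0.12 (SE 0.15, -0.22 to 0.45, adjusted p = 0.91). The groups overlapped in both sets, and control array 2 was the lowest of its group. The second Ctcf probe set (1449042_at) was more uneven: EBF1 arrays read 1708, 1056 and 1924 beside controls of 1249, 1082 and 1454, a change of 0.27 (-0.27 to 0.81, adjusted p = 0.78). With PAX5 it stood at 0.11 (-0.50 to 0.71, adjusted p = 0.96).

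Over the control and EBF1 samples Yy1 showed a narrower spread than Ctcf and Satb1. Probe set 1422569_at read 3866, 3640 and 3609 on first-set controls and 3667, 3533 and 3567 with EBF1, a log2 change of -0.05 (SE 0.10, -0.28 to 0.19, limma adjusted p = 0.94). It read 3852, 3646 and 3639 on second-set controls and 3945, 3806 and 3927 with PAX5, a change of 0.07 (SE 0.12, -0.19 to 0.34, adjusted p = 0.94). The arrays overlapped in both comparisons. Its 3 other probe sets lay between -0.04 and 0.08 with EBF1 and between 0.04 and 0.08 with PAX5, so all 4 stayed near their controls.

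The promoters of several of these genes share letters known as the core of the YY1 motif, and these windows are shown because the genes were chosen by function and not by sequence. RefSeq promoters (build GRCm38.p6, 250 bases before to 50 after a gene's start) were held for 7 of the 10 genes: Ctcf, Smc1a, Smc3, Stag1, Satb1, Yy1 and Pds5b, with 5 for Satb1 and 1 for each other gene. The letters GCCATNTT, chosen after these promoters had been looked at and searched on both strands, were found in 4 of the 11 promoters, each of a different gene, and in 6.05% of all 32851 promoters of the same length. Since the letters were chosen on these promoters, nothing is read from that contrast, and the letters alone do not show that YY1 binds there. Capitals mark the match in each window of 30 bases, written on the gene's own strand.
Ctcf, chr8:105636537-105636566, plus strand: accgcgccgccGCCATTTTgtgtccgagcc
Smc3, chr19:53600385-53600414, plus strand: ccgcggccgccGCCATTTTgtttggccaca
Pds5b, chr5:150673779-150673808, plus strand: ctgctcttggcGCCATTTTgaagcggagag
Stag1, chr9:100643235-100643264, plus strand, match on the opposite strand: gagaagctctaAAAATGGCgggcggcaacc

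The match began at base 11 of the transcript for Ctcf and at base 1 for Smc3, and lay 37 bases before the start for Pds5b and 202 before it for Stag1. The promoters of these 4 genes, Yy1 and Smc1a held 23 to 47 CpG dinucleotides each, a count that 21.5% of all promoters reach from its lower end, and the median over all promoters was 7. Of the 5 Satb1 promoters 1 held 45 CpG dinucleotides and the others 3 to 13. The 4 genes with the match had log2 changes of 0.06, -0.10, -0.10 and 0.06 with EBF1 (Ctcf, Smc3, Pds5b and Stag1, brightest probe sets) and 0.12, -0.15, -0.11 and 0.22 with PAX5, none past the test.

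The 3 genes of the cohesin ring showed no change past the test. Rad21, the subunit that closes the ring, read 4150, 3501 and 4459 on first-set controls and 4109, 3312 and 4104 with EBF1 (probe set 1416161_at), a log2 change of -0.07 (SE 0.14, -0.39 to 0.25, limma adjusted p = 0.92). On second-set controls it read 4122, 3501 and 4449, and with PAX5 4088, 4113 and 4040, a change of 0.03 (SE 0.16, -0.33 to 0.39, adjusted p = 0.99). All PAX5 arrays lay inside the range of the controls. Its other probe sets stood at 0.10 and -0.13 with EBF1 and at 0.07 and -0.21 with PAX5, with opposite signs within 1 gene. Probe set 1455938_x_at, whose suffix marks probes that may bind other transcripts too, was higher on each PAX5 array (2493, 2489 and 2504) than on any second-set control (2385, 2268 and 2481), by a small margin.

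Smc1a, an ATPase arm of the ring, read 2529, 1888 and 2548 on first-set controls and 2242, 1775 and 2237 with EBF1 (1417830_at), a log2 change of -0.15 (SE 0.16, -0.51 to 0.21, limma adjusted p = 0.83). Its second-set controls read 2522, 1893 and 2584 and the PAX5 arrays 1969, 2123 and 2006, a change of -0.20 (SE 0.18, -0.60 to 0.21, adjusted p = 0.85). Control array 2 was again the lowest, and the other control arrays lay above all arrays with either factor. The other Smc1a probe sets pointed the other way with EBF1, at 0.13 and 0.13, and the same way with PAX5, at -0.16 and -0.13. Smc3, the partner arm, read 2258, 1986 and 2370 on first-set controls and 1939, 2045 and 2170 with EBF1 (1450950_at), a change of -0.10 (SE 0.12, -0.38 to 0.17, adjusted p = 0.85). Beside second-set controls of 2244, 1978 and 2359 the PAX5 arrays read 1870, 2139 and 2026, a change of -0.15 (SE 0.14, -0.46 to 0.16, adjusted p = 0.85). The second Smc3 probe set was dim, at 83.4 to 128 over the 12 arrays, and its changes of 0.12 and -0.29 differed by 0.41 (0.07 to 0.75), with unadjusted p = 0.025 and adjusted p = 0.26 by limma.

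**Figure D2:**
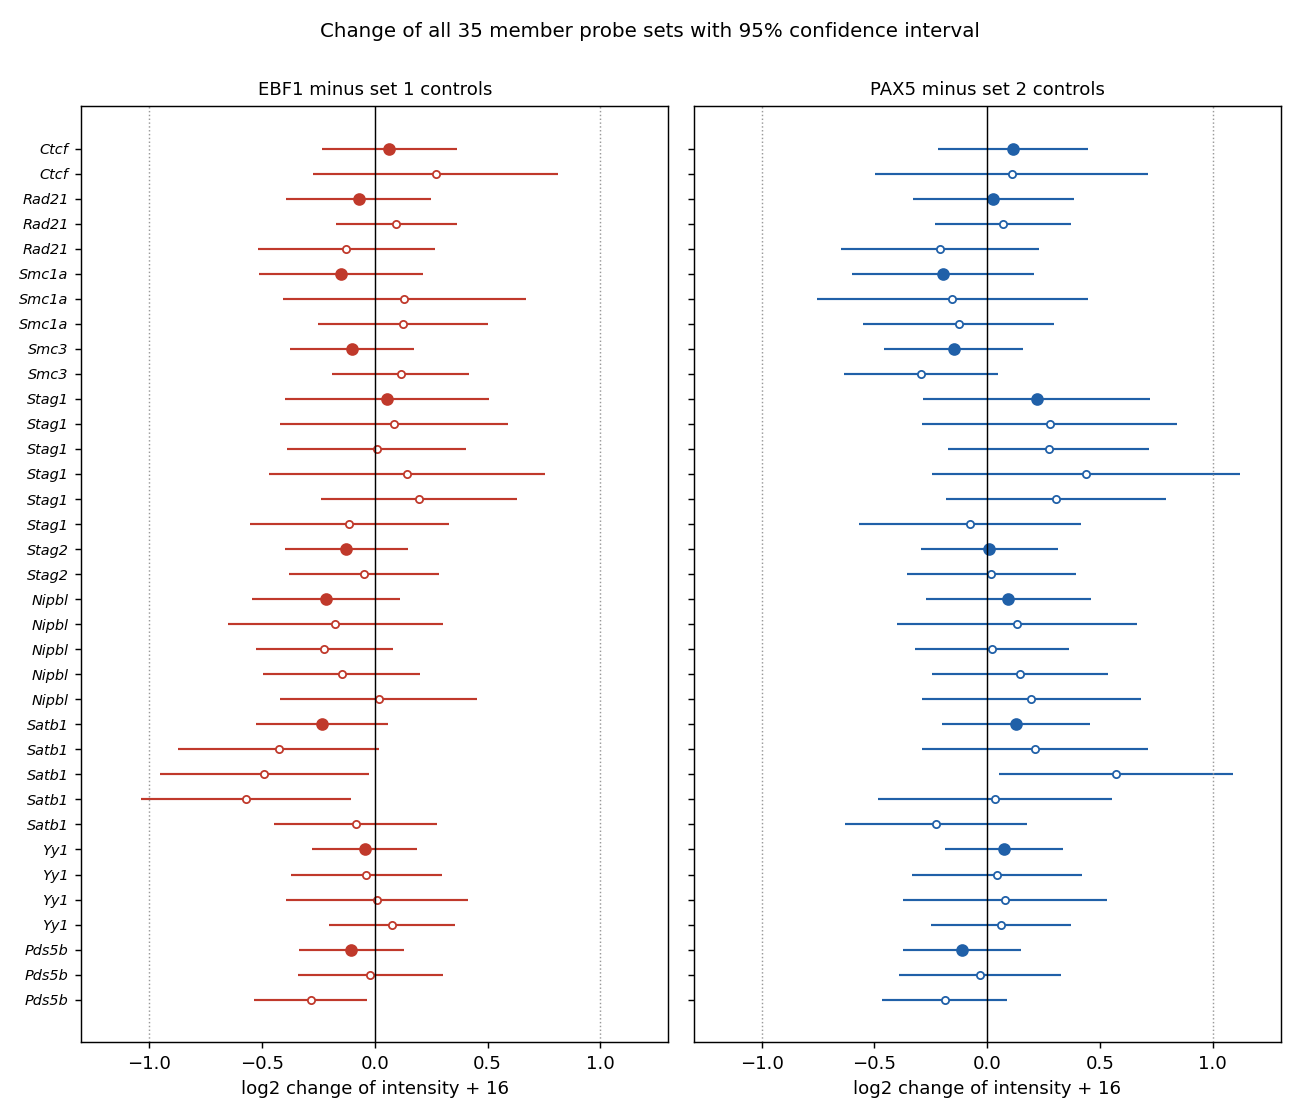
Log2 change of intensity plus 16 (horizontal axis) for all 35 probe sets, EBF1 against first-set controls on the left and PAX5 against second-set controls on the right, with 95% confidence intervals from limma. Filled points are the brightest probe set of a gene, and dotted lines mark a 2-fold change. The intervals of 34 probe sets with EBF1 and 33 with PAX5 stay between the dotted lines.

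STAG1 and STAG2 are alternative subunits of cohesin, and neither gene had a change past the test with EBF1 or PAX5. Stag1 read 1116, 856 and 1109 on first-set controls and 1304, 791 and 1153 with EBF1 (1431921_a_at), a log2 change of 0.06 (SE 0.20, -0.40 to 0.51, limma adjusted p = 0.96). In the second set it read 1174, 877 and 1174 on controls and 1287, 1245 and 1157 with PAX5, a change of 0.22 (SE 0.22, -0.29 to 0.72, adjusted p = 0.87). Array 2 was the lowest among controls and also with EBF1. Of 6 Stag1 probe sets 5 had a positive change with PAX5, of 0.22 to 0.44, and the dimmest stood at -0.08. On 3 of the 6 each PAX5 array lay above each control: 1434189_at read 966, 974 and 984 beside 928, 617 and 891. None of the 6 passed, and the lowest adjusted p with PAX5 was 0.79 by limma. The probe sets of a gene measure the same transcripts on the same arrays, so they are not replicates of each other. The interval of 1 Stag1 probe set (1450420_at, -0.25 to 1.12) reached past 2-fold.

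Stag2 read 2848, 2428 and 2845 on first-set controls and 2674, 2417 and 2339 with EBF1 (1421849_at), a log2 change of -0.13 (SE 0.12, -0.40 to 0.15, limma adjusted p = 0.80). Beside second-set controls of 2858, 2424 and 2867, PAX5 arrays read 2742, 2732 and 2696, a change of 0.01 (SE 0.13, -0.29 to 0.32, adjusted p = 0.998). The groups overlapped in both sets. The second Stag2 probe set stood at -0.05 with EBF1 and 0.02 with PAX5. Whether Stag1 and Stag2 differ from each other in their response was not tested.

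Nipbl, the loader of cohesin, had values slightly below the controls with EBF1 and slightly above them with PAX5. It read 1953, 1577 and 1937 on first-set controls and 1422, 1496 and 1790 with EBF1 (1437158_at), a log2 change of -0.21 (SE 0.14, -0.54 to 0.11, limma adjusted p = 0.68). Second-set controls read 1964, 1582 and 1960 and PAX5 arrays 2079, 1811 and 1843, a change of 0.09 (SE 0.16, -0.27 to 0.46, adjusted p = 0.94). The groups overlapped in both sets. The difference between both changes was -0.31 (-0.67 to 0.06, adjusted p = 0.43). Its 5 probe sets ranged from -0.22 to 0.02 with EBF1 and from 0.02 to 0.20 with PAX5.

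Pds5b, a cohesin regulator, had the closest control arrays of the 10 genes, and its small differences did not overlap. Its brightest probe set (1436161_at) read 876, 894 and 836 on first-set controls and 831, 799 and 793 with EBF1, a log2 change of -0.10 (SE 0.10, -0.34 to 0.13, limma adjusted p = 0.81). Second-set controls read 927, 913 and 908 and PAX5 arrays 836, 873 and 842, a change of -0.11 (SE 0.11, -0.37 to 0.15, adjusted p = 0.88). Each array with a factor thus lay below each control of its set, the nearest pair in the first set being 831 with EBF1 and 836 on a control. The dimmest Pds5b probe set (1441553_at) also did not overlap, at 61.5, 57.4 and 56.0 on first-set controls beside 48.7, 41.1 and 45.3 with EBF1 (-0.28, -0.53 to -0.03, adjusted p = 0.44) and 71.4, 66.5 and 66.7 beside 55.6, 63.6 and 56.8 with PAX5 (-0.19, -0.47 to 0.09, adjusted p = 0.77). The third probe set overlapped, with changes of -0.02 and -0.03.

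Satb1, the chromatin organiser of lymphoid cells, held the lowest change of the 35 probe sets with EBF1 and the highest with PAX5, but neither passed the test. Its brightest probe set (1416008_at) read 5053, 4454 and 4522 on first-set controls and 3437, 4378 and 4156 with EBF1, a log2 change of -0.23 (SE 0.13, -0.53 to 0.06, limma adjusted p = 0.61). On second-set controls it read 4962, 4407 and 4502 and with PAX5 5080, 5010 and 5000, a change of 0.13 (SE 0.14, -0.20 to 0.45, adjusted p = 0.90). The EBF1 arrays all lay below and the PAX5 arrays all above their controls, and EBF1 array 1 was far lower than EBF1 arrays 2 and 3.

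Probe set 1436182_at differed most between the factors. It read 1818, 1225 and 1442 on first-set controls and 804, 1315 and 1084 with EBF1, a log2 change of -0.49 (SE 0.20, -0.95 to -0.03, unadjusted p = 0.041, limma adjusted p = 0.48), and the groups overlapped through EBF1 array 2. In the second set it read 1845, 1236 and 1492 on controls and 2249, 2286 and 2182 with PAX5, without overlap, a change of 0.57 (SE 0.23, 0.05 to 1.09, unadjusted p = 0.035, adjusted p = 0.53). Its EBF1 change lay 1.06 below its PAX5 change in log2 (difference -1.06, SE 0.23, -1.58 to -0.54, adjusted p = 0.077). With PAX5 arrays 2 and 3 counted as 2 samples, the difference passed at -1.06 with adjusted p = 0.021, and over the 15 alternatives run for it the adjusted p ran from 0.021 to 0.53. No other member probe set passed, in the 19 alternatives run for each factor or the 17 run for the difference.

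**Figure D3:**
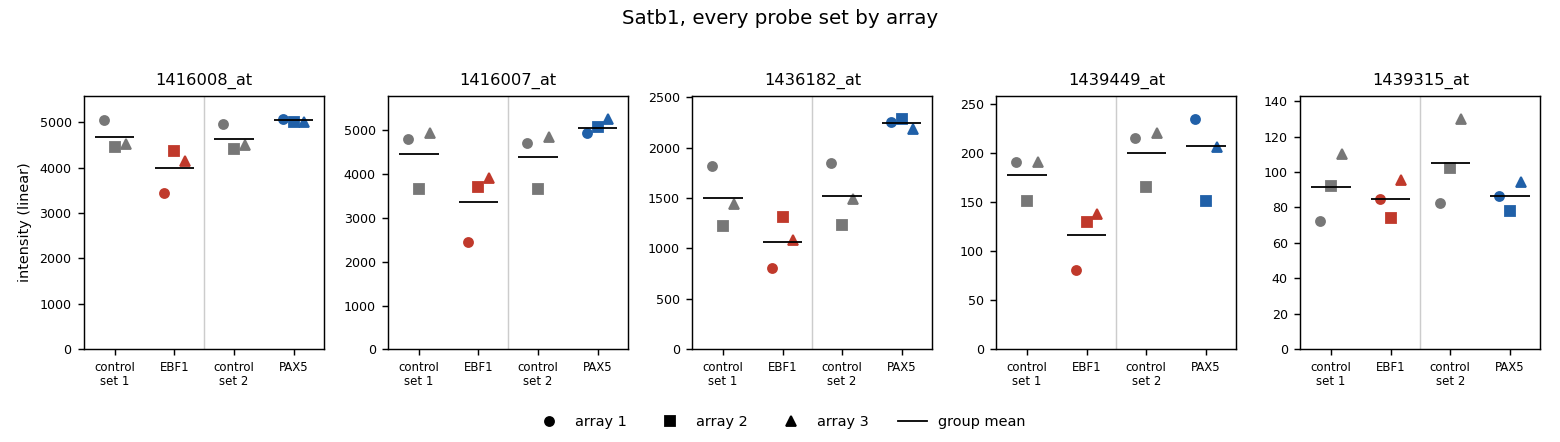
Intensity on a linear scale (vertical axis) of the 5 Satb1 probe sets for the 4 groups (horizontal axis), 1 point per array with its shape giving the array number, and lines at the group means (for PAX5, the mean of array 1 and the average of arrays 2 and 3). EBF1 array 1 is the lowest EBF1 array in 4 of the 5 panels, the exception being the dimmest probe set, and the 3 PAX5 arrays lie above all second-set controls in 3 panels.

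The other Satb1 probe sets gave changes of -0.43 (1416007_at, -0.87 to 0.02), -0.57 (1439449_at, -1.04 to -0.11) and -0.09 (1439315_at) with EBF1, the second of these at unadjusted p = 0.022 and adjusted p = 0.40 by limma. Probe set 1439449_at read 191, 151 and 191 on first-set controls and 81.3, 130 and 138 with EBF1, without overlap. With PAX5 the same 3 probe sets stood at 0.21, 0.03 and -0.23. Taken against the control array of equal number, EBF1 arrays 1, 2 and 3 differed by -0.55, -0.03 and -0.12 in 1416008_at, by -0.96, 0.02 and -0.34 in 1416007_at and by -1.16, 0.10 and -0.41 in 1436182_at. In 1439449_at they differed by -1.09, -0.19 and -0.43, below the control in all 3 pairs, with an interval of -1.09 to -0.05 under the replicate block (adjusted p = 0.41 by limma). Array 1 was the farthest from its control in all 4. Without it the 4 changes kept their sign and were each smaller by over 1.5 times, at -0.13, -0.22, -0.30 and -0.36, with adjusted p = 0.89, 0.85, 0.81 and 0.74 by limma. The high stromal markers were on EBF1 array 3, and without that array the same changes were -0.27, -0.55, -0.51 and -0.69.

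Probe sets whose arrays did not overlap were counted over all 10 genes. With EBF1 4 of 35 were lower, beside 6.14% of all probe sets, and 0 were higher, beside 7.06%. The 4 were 2 of Satb1 and 2 of Pds5b. With PAX5 7 of 35 were higher, beside 8.14% of all, made up of 3 of Satb1, 3 of Stag1 and 1 of Rad21. Another 2, both of Pds5b, were lower with PAX5, beside 8.77% of all. Arrays 2 and 3 of PAX5 counted separately in this.

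For most genes the control samples differed among themselves by more than the change with either factor. Over the brightest probe sets, the highest and lowest of the 3 control samples lay 0.05 (Pds5b) to 0.44 (Smc1a) apart in log2, with a median of 0.28. The EBF1 change was smaller than this range for 8 of 10 genes, with Satb1 and Pds5b as the exceptions, and the PAX5 change for 9 of 10, with Pds5b as the exception. This range includes deviations that same-numbered control and EBF1 arrays share. It is a spread of single samples and not the error of a change between group means. The 2 PAX5 samples lay closer together, 0.004 (Rad21) to 0.185 (Nipbl) apart. Pairs of equal number were then compared over the brightest probe sets. For 8 of 10 genes the EBF1 array lay on the same side of its control in all 3 pairs. It was lower for 7 (Rad21, Smc1a, Stag2, Nipbl, Satb1, Yy1 and Pds5b) and higher for Ctcf. Of all 18193 genes 37.3% kept 1 side in all pairs, and 3079 were lower in all. These differences of the 8 genes were small, for example -0.17, -0.09 and -0.19 in Smc1a, and none of the 10 passed limma's test under the block. Each of the 8 genes had another probe set that did not keep its side in all pairs. Smc1a 1417831_at, for example, differed by 0.445, -0.216 and 0.166, and Stag2 1450396_at by 0.008, 0.068 and -0.217. The genes also deviated together. Control sample 2 lay below the control mean for 9 of 10 genes, by a median of -0.17, and for 30 of 35 probe sets. EBF1 array 2 lay below its group mean for 9 of 10 genes, by a median of -0.05, and for 28 of 35 probe sets. Of 7313 brightly measured genes 47.9% and 51.5% lay below the mean on these 2 samples.

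**Figure D4:**
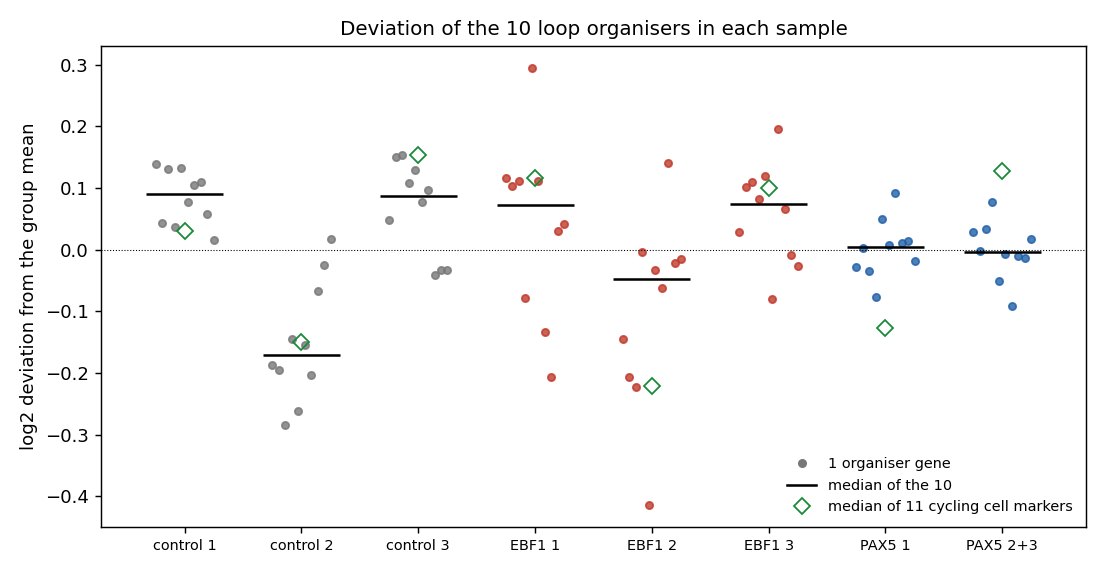
Log2 deviation from the group mean (vertical axis) of the brightest probe set of each of the 10 genes in the 8 samples counted (horizontal axis). Points are genes, lines their median, and open diamonds the median of 11 cycling cell markers. Control 2 and EBF1 2 lie below 0 for 9 of the 10 genes, and the cycling markers lie below 0 in both of them and in PAX5 1.

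Markers of cycling cells moved with these deviations in part. All 11 measured markers, among them Mki67, Cdk1 and Pcna, lay below the group mean on control sample 2 (median -0.15) and on EBF1 array 2 (median -0.22). They also lay below it on PAX5 array 1 (11 of 11, median -0.13), where the organisers did not (4 of 10 below, median 0.005). Between groups the summed intensity of these markers ran from 34474 to 43202 on first-set controls and 34108 to 42205 with EBF1, and from 34165 to 42600 on second-set controls and 32514 to 38739 with PAX5. None of the 11 passed limma's test with either factor, with 0 at unadjusted p under 0.05 in both. Stromal markers also had a median below the group mean on control sample 2 (-0.34), EBF1 array 2 (-1.47) and PAX5 array 1 (-0.36). On control sample 3 the stromal median was below it as well (-0.18), where that of the organisers was above it (0.09). The part of cycling or stromal markers in the deviations of the organisers was not tested. With each EBF1 array paired to the same-numbered control, so that such shared deviations cancel, 9 of 10 intervals lay within 1.5-fold, and the farthest bound, for Satb1, was 1.53-fold, beside 1.46-fold without pairing.

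Other genes of chromosome organisation were looked at from a list of 45, of which 39 had a probe set with 1 symbol: cohesin regulators of both loading and release, condensin subunits, SMC5 and SMC6, topoisomerases, nuclear matrix proteins, Mediator subunits and further DNA-binding organisers. By their brightest probe sets 0 of 39 rose and 0 fell past limma's test with EBF1, and 2 stood at unadjusted p under 0.05, beside 11.3% of the 18193 genes. With PAX5 again 0 rose and 0 fell, with 1 at unadjusted p under 0.05, beside 9.06% of all genes. Both counts are thus no larger a share than over all genes. Their median changes were 0.03 with EBF1 and -0.09 with PAX5, beside 0.02 and -0.01 over the brightest probe sets of all genes. Those at unadjusted p under 0.05 were Parp1, Maz and Arid3a. Parp1, an enzyme of DNA repair that also binds chromatin, read 4237, 3709 and 4727 on first-set controls and 7085, 6707 and 4905 with EBF1, a change of 0.55 (SE 0.17, adjusted p = 0.31). Maz, a zinc finger factor, read 211, 228 and 185 on first-set controls and 262, 259 and 298 with EBF1, a change of 0.37 (SE 0.11, adjusted p = 0.30). Arid3a, a DNA-binding protein of B cells, read 780, 1008 and 1142 on second-set controls and 1469, 1182 and 1142 with PAX5, a change of 0.43 (adjusted p = 0.57).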

How the data were processed

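Values are the intensities per probe set that the authors deposited, on a linear scale, 1 column per array, 0 columns unused. The probe summary and array normalization are not given in the sources used here, so a scaling that removes a shift common to most genes cannot be seen. Symbols came from the platform annotation (1 symbol for 34945 probe sets, several for 932, none for 9160), and 34741 matched the RefSeq gene list (GRCm38.p6). The values name no genome build. Log2(intensity + 16) was fitted without filter by limma 3.58.1 in R 4.3.3 (lmFit, eBayes), over all 45037 probe sets. The offset between control sets was removed gene by gene, equal-numbered controls and PAX5 arrays 2 and 3 were averaged (5 residual and 3.68 prior degrees of freedom), and each factor was compared with its own set's controls. The code was tested on simulated data. SDs are not printed where arrays are given. The number of arrays limits the precision.

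Members, gene lists, fold limits and tests were chosen with earlier results of these data known. The naming rule took every probe set of the members and, of the 45 other organisers, those past the threshold or else the largest at unadjusted p under 0.05. The condensin genes named in the closing section and the motif were chosen after values or promoters were seen. Lists of progenitor, B lineage, cycling, stromal, myeloid, T, natural killer and erythroid markers were used only beside results.

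Deviations of equal-numbered control and EBF1 arrays correlated at 0.35, 0.61 and 0.39 over 12889 bright probe sets (mean log2 above 8). Over all probe sets they correlated at 0.18, 0.34 and 0.21, so their numbers may pair them. Unequal numbers were not compared in this way, and the labels state no pairing. For PAX5 the values were 0.41, 0.19 and 0.33, and 0.16, 0.05 and 0.15. With PAX5 arrays 2 and 3 counted as 1 sample, fewer than 3 separate pairs remain, and whether its numbers pair arrays is unsettled. The values reported are from the fit without pairing, and the replicate block is an alternative for both factors, with all 3 arrays of each group. Python 3.11.15 with pandas 2.3.3 and matplotlib 3.10.9 drew the figures.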

Additional observations from a re-analysis of the deposited data

How the results depend on the processing

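Over 19 alternatives for each factor and 17 for the difference, where the replicate block and the fit of only the compared groups were not run (pseudocounts of 1 and 64, quantile normalization, a filter on dim probe sets, other ways of counting arrays or probe sets, pairing and leaving out each replicate), 0 member probe sets passed limma's test with EBF1 or with PAX5, and the lowest adjusted p was 0.25 and 0.27. For the difference, 1 passed with PAX5 arrays 2 and 3 as 2 samples. Of 1763 alternative values of single probe sets 108 changed sign, none with a size above 0.20 as reported. The replicate block changed no call of a member, and with it 257 of all probe sets passed with PAX5. Counts over all probe sets moved more, and the cause was not tested. With EBF1 the 44 became 14 with a pseudocount of 64, 9 with only probe sets of mean log2 above 7, 295 with all 12 arrays counted separately, 95 with PAX5 arrays 2 and 3 as 2 samples, 22 with only the groups of the comparison, 7 with the replicate block and 18 to 597 on leaving out a replicate. With PAX5 the 232 became 96 with a pseudocount of 1, 133 with the filter, 638 with 12 arrays, 464 with PAX5 arrays as 2 samples, 153 with the mean of a gene's probe sets and 50 to 263 on leaving out a replicate. For the difference the 473 became 226 with a pseudocount of 1, 208 with 12 arrays, 1351 with PAX5 arrays as 2 samples and 78 to 874 on leaving out a replicate. Intensities of dim probe sets, such as the second of Smc3, limit what can be said of them.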

Other observations

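Genes of chromosome condensation and of the cell cycle had fitted changes mostly below 0 with PAX5. The arrays overlapped for most of them, and the medians lay nearer 0 without array 1, more so for the cell cycle genes. Of 10 measured genes of the condensin and SMC5/6 complexes 9 had a fitted change below 0 with PAX5, beside 51.7% of all genes, with a median log2 change of -0.17. The arrays overlapped those of the second-set controls for 9 of the 10, all but Smc4, and 0 passed limma's test (0 at unadjusted p under 0.05). These genes were singled out after their values were seen. Ncapd2 stood at -0.27, Smc4 at -0.21, Smc2 at -0.20 and Smc6 at 0.02. The 11 cycling cell markers had a median of -0.16 with PAX5 and all lay below 0, with overlapping arrays for 10 of 11, and 0 passed. PAX5 array 1 lay lower than the sample of arrays 2 and 3, and without it, an alternative chosen after seeing the data, the median was -0.05 for the cycling markers, with 7 of 11 below 0. For the condensin and SMC5/6 genes it was -0.11, with 7 of 10 below 0. With EBF1 the medians were 0.06 and 0.01. Over the brightest probe sets of all genes the medians were -0.01 with PAX5 and 0.02 with EBF1.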
